A study of Mus musculus with 24 samples.

Results

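Lungs of 4T1-injected mice were compared with lungs of sham-injected mice, all kept on the control diet, on 6 of the 24 arrays of the series, 3 per group. All mice were female BALB/c, 22 weeks old and had eaten the control diet for 16 weeks before injection. The tumour group then received 4T1 cells, a mouse mammary carcinoma line, in the mammary fat pads, the other group a sham injection, and lungs were taken 14 days later. Arrays were chosen by their sample titles, and probes counted as above background where their detection p, a rank among negative controls, was under 0.05; those above background on at least 3 of the 6 arrays were kept. This kept 22676 of 45281 probes, and with the brightest probe per gene it left 12120 of the 19053 genes on the array. The remaining 18 arrays carry the same design on a high-fat diet and in liver. They enter here as the shared estimate of spread in lung and for 2 tests of whether the injection difference varied. The labels do not say that the 3 arrays of a group were separate mice, so p-values reflect only how these samples vary, which may be technical.

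4T1 tumours secrete growth factors for granulocytes, and mice that bear them develop a strong rise of neutrophils and immature myeloid cells in blood, spleen and lung, a common site of 4T1 metastasis. Neutrophils store proteins in granules that are loaded in a fixed order during maturation in the bone marrow: primary granules with myeloperoxidase and serine proteases first, then secondary and tertiary granules with lactoferrin, cathelicidin and gelatinase. The lung itself is built of flat type 1 and surfactant-making type 2 alveolar cells, club and ciliated airway cells, a dense capillary endothelium and fibroblasts. The values below come from whole lung and are relative to all its RNA. Fewer cells of a type, less RNA per cell and a smaller share beside RNA of added cells therefore cannot be told apart.

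Values are the authors' log2 intensities, which are quantile-normalized without background correction, so that a difference is relative to the other transcripts on the array and is understated for dim probes. Sham arrays had 51.1 to 52.4% of their probes above background and 4T1 arrays 42.97 to 44.47%, and these ranges did not overlap. The part of this gap in the results was not tested. The root mean square SD between arrays of a group was 0.10 for sham and 0.11 for 4T1 on the log2 scale. The lung markers were bright on all 6 arrays: Sftpc (surfactant protein C) read 15.30, 15.20 and 15.25 on sham arrays and 14.96, 15.00 and 14.91 after 4T1 injection, Ager (a type 1 cell receptor) lay at 14.80 to 15.02 and 14.63 to 14.67, and Pecam1 (an endothelial adhesion molecule) at 13.75 to 13.87 and 13.34 to 13.52. Scgb1a1, the club cell secretoglobin, lay between 16.07 and 16.09 on every array, at the top of the scale, where no change can be read (-0.01, and 0.14 under median scaling with limma's adjusted p = 0.0272).

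Of 12120 genes tested with limma, 2535 were higher on 4T1 arrays (20.9%) and 4046 lower (33.4%) at a Benjamini-Hochberg adjusted p under 0.05, and 5539 were not called. Some genes passed the detection filter through 1 group only. The probes of 767 were above background on 3 sham and 0 4T1 arrays, and those of 132 on 0 sham and 3 4T1 arrays. Among genes with a probe above background on all 6 arrays 2240 were higher and 3284 lower. Increases were the larger changes. At least 2-fold were 365 increases and 35 decreases, at least 4-fold 109 and 2, and at least 16-fold 20 and 0. The median change of all genes was -0.06. With arrays scaled to a common median in place of quantile normalization, increases made up 46.2% of the calls in place of 38.5%, and the median of all genes was -0.02. Groups did not overlap for 2916 genes that were higher and 4520 that were lower on 4T1 arrays, so groups that lie apart were common among the 12120 genes. Below, a gene "rose" or "fell" when it was called, and a gene list is read against 20.9 and 33.4%.

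The 15 largest increases were mostly genes of neutrophils and their precursors, with 1 eosinophil gene among them. Stfa2, a stefin A gene encoding a cytosolic inhibitor of cysteine proteases, read 7.79, 7.87 and 7.80 on the sham arrays and 15.51, 15.58 and 15.78 on the 4T1 arrays, a log2 change of 7.80 ± 0.09 (SE; limma's adjusted p = 2.15e-16). Ngp, a neutrophil granule protein, read 7.58, 7.62 and 7.56 against 14.69, 14.64 and 14.68, a change of 7.08 ± 0.07. Each of these genes went from near background on every sham array to the upper part of the scale on every 4T1 array. Stfa1 read 7.79, 7.68 and 7.64 against 14.42, 14.35 and 14.44, and Cstdc4, another gene of the stefin cluster, 8.06, 8.02 and 7.89 against 13.91, 13.80 and 14.08. Cstdc5, of the same cluster, read 7.32, 7.35 and 7.29 against 11.82, 11.58 and 11.70; since it was above background on none of the sham arrays, it was at least 18.3-fold higher. The stefin A genes are near-identical copies, so a probe may read its relatives, which was not tested.

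Granule and receptor genes filled most of the remaining places among the 15. Camp, the cathelicidin antimicrobial peptide, read 7.73, 7.71 and 7.93 on sham and 14.45, 14.26 and 14.33 on 4T1 arrays, a change of 6.56 ± 0.08. Mpo, the myeloperoxidase of primary granules, read 7.43, 7.27 and 7.44 against 12.78, 12.65 and 12.73 and was at least 37.2-fold higher, being above background on no sham array. Its other kept probes changed by 1.64 to 4.61. Prok2, a secreted prokineticin made by neutrophils, went from 7.34, 7.17 and 7.35 to 13.40, 13.38 and 13.51, a fitted change of 6.14 ± 0.07, with this probe above background on 0 of 3 sham arrays. Mmp9, the gelatinase of tertiary granules, rose by 4.63 ± 0.06, the membrane protein gene Ifitm6 by 5.66 ± 0.10, Retnlg (a resistin-like secreted protein) by 5.14 ± 0.08, Cd177 (a neutrophil surface antigen) by 4.39 ± 0.07 and Cxcr2 (the receptor for the neutrophil-attracting CXC chemokines) by 4.35 ± 0.08. Mrgpra2b, a G protein-coupled receptor gene, rose by 4.88 ± 0.07, while its other kept probe changed by 0.16.

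Prg2, the major basic protein of eosinophil granules, was the most variable of the 15, with 13.34, 13.10 and 14.14 on the 4T1 arrays against 8.15, 8.04 and 8.19 on the sham arrays, a change of 5.4 ± 0.20. The array labelled 4T1 replicate 3 was the highest for it, and all 3 lay far above the sham arrays.

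**Figure D1:**
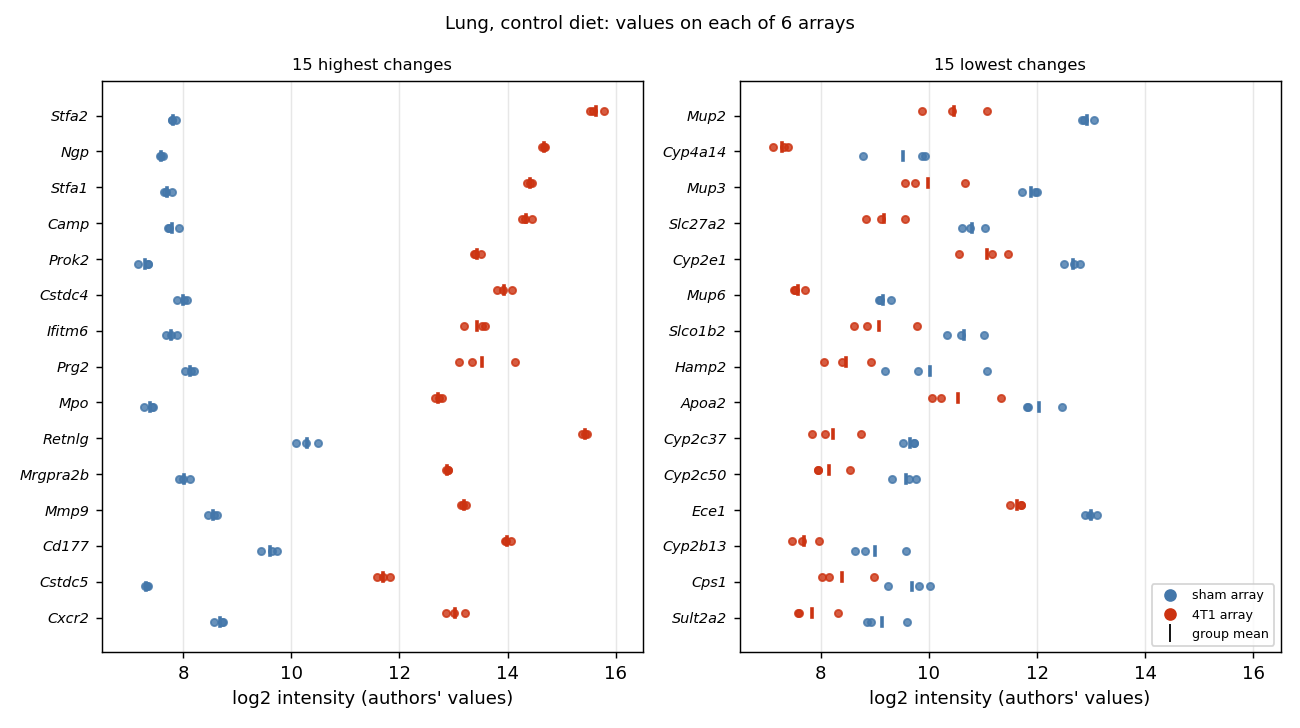
Log2 intensity (x axis, authors' values) on each of the 6 control-diet lung arrays for the 15 highest and the 15 lowest changes, with points for arrays and short bars for group means. Genes were chosen for groups that do not overlap, so the gap itself is no finding; the largest changes were 7.80 for Stfa2 and -2.46 for Mup2.

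RefSeq promoter windows (GRCm38.p6, 250 bases before to 50 after the start) were available for 13 of the 15 highest genes and were searched on both strands for a C/EBP-type site (TTGCNNAA) and a PU.1-type site (GAGGAAG), since C/EBP factors and PU.1 are known regulators of granulocyte genes. Each motif was found in 4 of the 13 windows (30.8%), against 8.92% (C/EBP) and 13.6% (PU.1) of 9737 windows of genes tested. The C/EBP-type site lay in Ngp, Stfa1, Retnlg and Cstdc5, and the PU.1-type site in Stfa1, Cstdc4, Cstdc5 and Mpo. Stfa1, Cstdc4 and Cstdc5 belong to the stefin cluster and have similar windows, so the 13 windows are not independent. Of the 12 windows of the lowest genes, 2 held the C/EBP-type and 0 the PU.1-type site, and an HNF4-type site (CAAAGTCC), known from hepatocyte genes, was found in 0 of the 12 and in 1.54% of the genes tested. A match is a description of letters, not a bound site. The 4 windows below are shown because they hold matches, printed in capitals on the strand of the gene; Stfa1 and Cstdc5 lie in the stefin cluster of chromosome 16 and share the C/EBP-type match TTGCCTAA with the same letters on either side of it.
Ngp (chr9:110419558-110419857, plus strand): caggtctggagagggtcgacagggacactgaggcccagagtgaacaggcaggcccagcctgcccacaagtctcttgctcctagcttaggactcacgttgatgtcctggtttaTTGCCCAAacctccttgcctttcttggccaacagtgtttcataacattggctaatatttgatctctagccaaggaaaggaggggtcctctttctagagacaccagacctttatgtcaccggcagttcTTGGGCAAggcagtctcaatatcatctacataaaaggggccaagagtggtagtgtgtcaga
Stfa1 (chr16:36276898-36277197, plus strand): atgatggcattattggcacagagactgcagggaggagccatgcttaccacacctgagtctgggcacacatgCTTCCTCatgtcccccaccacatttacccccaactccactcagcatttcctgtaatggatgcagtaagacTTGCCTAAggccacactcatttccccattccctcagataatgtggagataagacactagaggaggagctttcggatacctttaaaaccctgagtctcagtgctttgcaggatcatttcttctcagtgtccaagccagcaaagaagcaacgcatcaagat
Cstdc5 (chr16:36367521-36367820, minus strand): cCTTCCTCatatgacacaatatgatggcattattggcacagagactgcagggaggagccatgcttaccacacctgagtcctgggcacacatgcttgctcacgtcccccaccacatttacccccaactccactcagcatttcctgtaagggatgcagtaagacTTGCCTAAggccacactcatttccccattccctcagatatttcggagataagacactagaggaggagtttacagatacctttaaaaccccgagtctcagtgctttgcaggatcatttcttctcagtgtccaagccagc
Mpo (chr11:87793534-87793833, plus strand): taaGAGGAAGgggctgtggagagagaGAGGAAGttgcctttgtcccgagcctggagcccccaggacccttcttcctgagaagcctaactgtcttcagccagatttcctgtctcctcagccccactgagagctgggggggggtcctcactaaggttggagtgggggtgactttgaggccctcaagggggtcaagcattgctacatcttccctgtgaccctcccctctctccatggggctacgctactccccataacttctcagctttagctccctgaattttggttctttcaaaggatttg

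Genes of secondary and tertiary granules rose almost throughout. Of 18 tested members 16 rose and 0 fell, with a median change of 2.72 against -0.06 for all genes. Beside Ngp, Camp, Ifitm6 and Mmp9, Ltf (lactoferrin) read 13.28, 13.64 and 13.47 on sham and 16.02, 16.04 and 16.05 on 4T1 arrays, where the brightest lung values lie at 16.09, so its change of 2.57 is not measured exactly; its other kept probe changed by 4.27. Lcn2, the iron-siderophore binding lipocalin 2, rose by 2.71 ± 0.08 to 15.79, 15.83 and 15.82. The members without a call were Lyz1, a lysozyme at the top of the scale on all arrays (-0.02), and Chil3, a chitinase-like gene with 12.98, 12.64 and 13.06 on sham arrays (-0.05).

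On the primary granule list 6 of 10 tested members rose, and 1 fell. The neutrophil proteases led beside Mpo. Ctsg (cathepsin G) read 7.26, 7.25 and 7.11 on sham and 10.84, 10.62 and 10.91 on 4T1 arrays and was at least 9.73-fold higher, Prtn3 (proteinase 3) rose by 3.46 ± 0.08, and Elane (neutrophil elastase) by 2.41 ± 0.06, or 4.11 after background correction. Lyz2, the lysozyme of macrophages and granulocytes, fell by 0.25, a call lost under median scaling, and Nkg7 (0.18), Ctsc (0.02) and Igfals (-0.24) were not called. Igfals encodes a subunit of the circulating insulin-like growth factor complex and is no granule gene, and Nkg7 stands on the T and NK cell list too. Both remain in the list's counts and median. The list's median was 0.97 (0.84 with the 3 members not detected on sham arrays at their bounds, 2.10 after background correction). Of the 5 members above background on all 6 arrays, 2 were called higher.

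All 8 tested calprotectin and stefin A genes rose, with a median of 4.25 (4.16 with 2 members at their bounds). S100a9, the calprotectin subunit that partners S100a8, read 11.70, 11.72 and 11.47 on sham and 15.55, 15.51 and 15.54 on 4T1 arrays, a change of 3.91 ± 0.06. S100a8 changed by 4.12 to a 4T1 mean of 16.04, at the top of the scale. Of 24 neutrophil receptor and migration genes 22 rose and 0 fell, with a median of 2.62, the exceptions being Cxcr4 (0.11) and G0s2 (0.09). Csf3r, the receptor for granulocyte colony-stimulating factor, read 9.56, 9.20 and 9.32 against 13.48, 13.27 and 13.18, a change of 3.95 ± 0.10. The groups of both genes were far apart.

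The list of eosinophil, basophil and mast cell genes moved in different directions. Of 16 tested members 11 rose and 2 fell, with a median of 0.91 (7 of them higher among members above background on all 6 arrays; median 0.74 with 4 members at their bounds, 2.06 after background correction). Prss34, a protease of basophils, read 7.54, 7.52 and 7.51 on sham and 11.16, 11.14 and 11.74 on 4T1 arrays, a change of 3.82 ± 0.12 (5.73 after background correction). Ear6, an eosinophil-associated ribonuclease, rose by 3.16 ± 0.20 and Hdc, the histamine-forming decarboxylase, by 2.02 ± 0.07. The 5 members that did not rise were Tpsb2, Gata2, Kit, Mcpt4 and Cma1. Tpsb2 (a tryptase) fell by 0.25 (not called under median scaling) and Gata2 (a transcription factor of mast cells and progenitors) by 0.31, and Kit (-0.16), Mcpt4 (-0.22) and Cma1 (-0.01) were not called. Prss34, Ear6 and Prg2 were each highest on the array labelled 4T1 replicate 3.

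**Figure D2:**
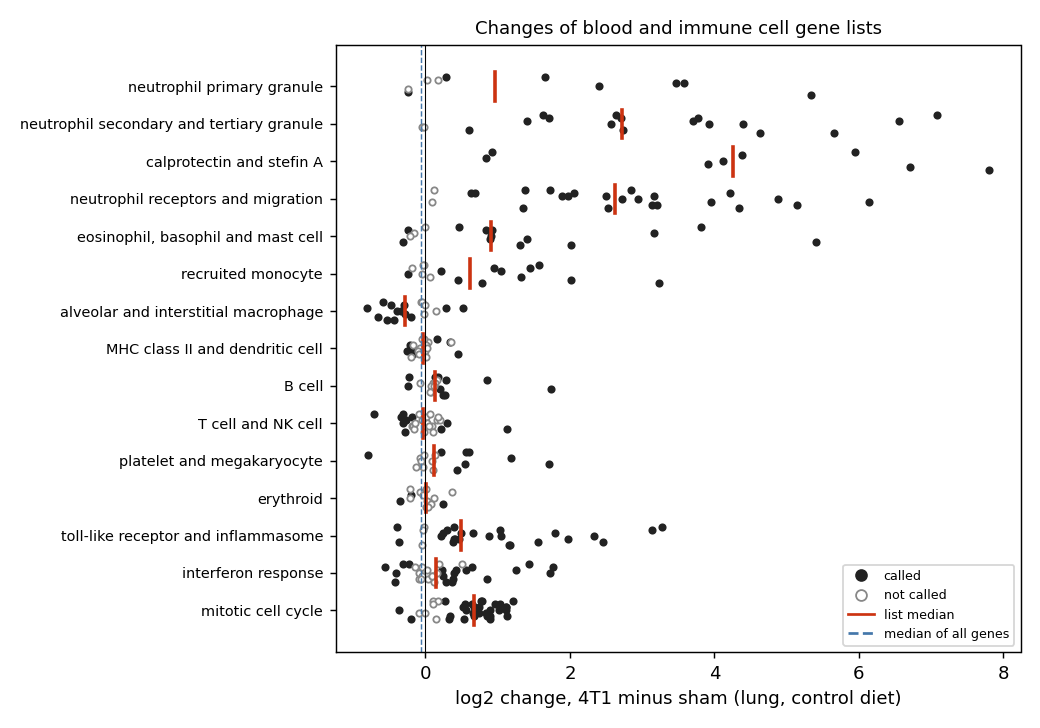
Log2 change (x axis, 4T1 minus sham, control diet) of each tested member of 15 blood and immune gene lists, with filled points for called genes, open points for genes not called, a red bar for the list median and a dashed line for the median of all genes at -0.06. The secondary and tertiary granule, calprotectin and stefin A, and neutrophil receptor lists extend furthest right, with medians of 2.72, 4.25 and 2.62. The primary granule list has a median of 0.97. The macrophage list has its median left of 0, at -0.29, with members from -0.81 to 0.51.

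Among 16 genes of recruited monocytes, 10 rose and 1, Lyz2, fell, with a median of 0.62. Emilin2, an extracellular glycoprotein gene, rose by 3.23 ± 0.06 and Plac8, expressed in myeloid cells, by 2.01 ± 0.11. Ccr2, the receptor that brings monocytes out of the marrow, read 8.03, 7.90 and 7.94 on sham and 9.49, 9.31 and 9.40 on 4T1 arrays, a change of 1.45 ± 0.07 (2.33 after background correction), and F13a1 (coagulation factor XIII A) rose by 1.57 ± 0.07. Csf1r, the receptor of the macrophage growth factor, was not called (0.06). Without the detection filter the list's median was 0.22.

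Macrophage genes of the alveoli and interstitium went the other way, with 11 of 18 lower and 2 higher and a median of -0.29. Mertk, a receptor for the uptake of dying cells, read 10.87, 10.71 and 10.78 on sham and 10.08, 9.98 and 9.86 on 4T1 arrays and fell by 0.81. Cd163, the haemoglobin scavenger receptor, fell by 0.53 (by 0.86 after background correction), and Lpl (lipoprotein lipase, -0.58) and Car4 (a carbonic anhydrase also made by lung capillaries, -0.66) fell too. Ctsd (0.51, and 1.27 after background correction), a lysosomal protease, and C1qa (0.29), a complement subunit, were the members that rose.

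Genes of antigen presentation and lymphocytes moved little. Of 20 MHC class II and dendritic cell genes 3 rose and 4 fell, with a median of -0.03. Cd86, a costimulatory ligand, rose by 0.45 (other probes -0.05 to 0.47) and Cd74, the class II invariant chain, fell by 0.25, a call lost without sham array 1 or 4T1 array 3 (limma's adjusted p up to 0.06). Of 26 T and NK cell genes 3 rose and 7 fell, shares below those of all genes, although under median scaling 7 and without sham array 1 6 were higher. Cd3d, a chain of the T cell receptor complex, rose by 1.14 ± 0.09, from 10.18, 10.36 and 9.99 to 11.29, 11.23 and 11.41, while its partner Cd3e read -0.02. Ccl5, a chemokine of T and NK cells, fell by 0.71 ± 0.12.

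Of 18 B cell genes 8 rose and 2 fell, with a median of 0.13, but this count rested on single arrays, with 3 higher without sham array 3 or without 4T1 array 2, and 5 without sham array 1, without 4T1 array 1 or under median scaling. Cd37, a tetraspanin of B cells and other leukocytes, rose by 1.74 ± 0.08 and the receptor gene Tnfrsf13b by 0.85 ± 0.07 (other probe 0.16). Blk and Cd79b, signalling genes of the B cell receptor, changed by 0.29 and 0.27 with overlapping groups, and both calls were lost under median scaling and on leaving out 1 of several arrays (limma's adjusted p up to 0.218).

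The platelet and megakaryocyte list had 7 of 16 members higher and 1 lower. Selp (P-selectin, a leukocyte adhesion receptor of platelets and endothelium) read 8.36, 8.26 and 8.33 on sham and 9.99, 10.05 and 10.03 on 4T1 arrays, a change of 1.71 ± 0.05, F5 (coagulation factor V) rose by 1.19 and Tubb1 (platelet tubulin) by 0.60. Pf4, the platelet chemokine, was the member that fell, by 0.80 ± 0.07, from 9.76, 9.76 and 9.94 to 9.13, 8.94 and 9.00. Selp, F5 and Tubb1 thus rose while Pf4 fell. Of the 16 members 8 were not called, and Selp also stands on the endothelial list.

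Among 26 cytokine and growth factor genes 9 rose and 11 fell, and the median was 0.01. Il1b, interleukin 1 beta, read 10.43, 10.22 and 10.09 on sham and 14.08, 13.85 and 14.18 on 4T1 arrays, a change of 3.79 ± 0.09. Osm (oncostatin M, an interleukin 6 family cytokine) rose by 2.68 ± 0.07, with 0.43 at its other probe, and Tnf by 0.76 ± 0.10 (1.72 after background correction). Vegfa, the endothelial growth factor made by type 1 cells, fell by 0.58 ± 0.07. Of 28 chemokine ligand genes 4 rose (7 under median scaling) and 9 fell, with a median of -0.03. The macrophage inflammatory chemokines Ccl4 (1.15 ± 0.12) and Ccl9 (1.08 ± 0.10) rose furthest.

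Pattern receptor genes rose together with the neutrophil genes. Of 27 toll-like receptor and inflammasome genes 22 rose and 2, Tlr3 and Il18r1, fell, with a median of 0.49 (1.02 after background correction, and 0.77 among members above background on all 6 arrays). Nlrp12, a regulator of inflammatory signalling in myeloid cells, read 7.69, 7.65 and 7.58 on sham and 10.78, 10.88 and 11.09 on 4T1 arrays, a change of 3.28 ± 0.08 (4.93 after background correction). Il1r2, the decoy receptor for interleukin 1, rose by 3.13 ± 0.06, Tlr13, a receptor for bacterial ribosomal RNA, by 2.45 ± 0.06, and Tlr6, a lipopeptide co-receptor, by 2.33 ± 0.05. None of these genes had overlapping groups.

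The myeloid suppressor and checkpoint list had 9 of 16 higher and 1 lower, the adenosine-forming ectoenzyme gene Nt5e (-0.35). The subunits of the phagocyte oxidase led, with Ncf4 at 3.38 ± 0.06 and Ncf1 at 1.75 ± 0.09 (2.79 after background correction). Tgfb1 rose by 0.47 ± 0.07 and Nos2, the inducible nitric oxide synthase, was at least 1.30-fold higher. The interferon response list was split, with 14 of 34 higher and 5 lower (2 without sham array 1, and 3 without 4T1 array 2 or 4T1 array 3, or after background correction), and a median of 0.14. The 4 leading members were antiviral oligoadenylate synthetase genes, Oas2 at 1.76 ± 0.10, Oasl1 at 1.72 ± 0.07, Oas1g at 1.43 ± 0.08 and Oas3 at 1.26 ± 0.06 (2.72 after background correction).

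Of 24 complement, pentraxin and acute phase genes 7 rose (29.2%) and 8 fell (33.3%), against 20.9 and 33.4% of all genes. Saa3, the serum amyloid A made outside the liver, read 10.33, 9.70 and 9.44 on sham and 12.48, 12.76 and 12.46 on 4T1 arrays, a change of 2.74 ± 0.18. Lrg1 (a leucine-rich glycoprotein also stored in neutrophil granules) rose by 2.62 ± 0.05 and Socs3 (the feedback inhibitor of STAT3 signalling) by 2.15 ± 0.08. Of the members that fell, Cfb (complement factor B) had the largest change, -0.50.

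Of 36 mitotic genes 28 were called higher and 2 lower, with a median of 0.67. Plk1, a mitotic kinase, read 8.48, 8.56 and 8.50 on sham and 9.83, 9.55 and 9.78 on 4T1 arrays, a change of 1.21 ± 0.15. Birc5 (survivin) rose by 1.11 ± 0.15, Kif23 (a kinesin of cytokinesis) by 1.11 ± 0.08 with other probes at -0.07 to 1.26, and Top2a (topoisomerase II alpha) by 1.13 ± 0.21 with 0.34 at its other probe. The members called lower, Stmn1 and Pcna, were above background on no 4T1 array, were at least 1.10-fold and 1.01-fold lower, and were not called under median scaling. Whole-lung values do not tell which cells were dividing.

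Alveolar genes were lower on 4T1 arrays by modest amounts. Of 22 type 1 cell genes 21 fell and 0 rose, with a median of -0.42, and Igfbp2 (-0.01) was not called. Rtkn2, a marker of type 1 cells, read 12.01, 11.88 and 12.04 on sham and 11.18, 11.03 and 11.00 on 4T1 arrays and fell by 0.91 ± 0.10. Hopx (a homeodomain protein, -0.65), Cav2 (-0.62) and Cav1 (-0.61), the caveolins, fell without overlap. Of 27 type 2 cell and surfactant genes 19 fell and 0 rose, with a median of -0.24. Nkx2-1, the transcription factor that specifies lung epithelium, read 11.57, 11.64 and 11.61 against 10.77, 10.54 and 10.52 and fell by 0.99 ± 0.09. Slc34a2 (the phosphate transporter of type 2 cells, -0.87), Lamp3 (-0.63) and Sftpb (surfactant protein B, -0.52) fell, and Sftpc fell by 0.29 ± 0.08 and Ager by 0.28 ± 0.06.

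Airway genes of secretory and ciliated cells are given in turn, without a test between them. Of 20 club and goblet genes 10 fell and 2, Hp and Muc20, rose, with a median of -0.20. Aldh1a1 (a retinaldehyde dehydrogenase) read 12.94, 12.91 and 13.04 on sham and 12.02, 11.72 and 11.56 on 4T1 arrays and fell by 1.20 ± 0.11. The secreted airway proteins Scgb3a1 (-1.03), Bpifa1 (-0.98) and Reg3g (-0.79, and -1.59 after background correction) fell too. Of 23 ciliated cell genes 8 fell (34.8%, near the 33.4% of all genes) and 3 rose, with a median of -0.09. Foxj1, the master regulator of motile cilia, rose by 0.53 ± 0.05 (1.14 after background correction), Hydin, of the ciliary axoneme, by 0.40 (0.92) and Lrrc6, needed for dynein assembly, by 0.30 (0.51), while Dynlrb2, a dynein light chain, fell by 0.30.

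Among 47 endothelial genes, 33 fell and 1, Selp, rose, with a median of -0.29. Thbd, the anticoagulant receptor thrombomodulin, read 12.20, 12.31 and 12.17 on sham and 11.30, 10.94 and 11.05 on 4T1 arrays and fell by 1.13 ± 0.09. Edn1, endothelin 1, read 12.41, 12.27 and 12.32 against 11.35, 11.34 and 11.31 and fell by 1.00 ± 0.05. Lyve1, a hyaluronan receptor of lymphatic vessels, fell by 0.85 ± 0.08 and Pecam1 by 0.40 ± 0.06. Ece1, the protease that activates endothelins, was among the 15 largest decreases of all genes, with 13.10, 12.89 and 12.98 against 11.50, 11.71 and 11.70, a change of -1.35 ± 0.07 (-0.53 at its other kept probe). The groups of these genes were apart, for Ece1 by the rule that chose it.

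**Figure D3:**
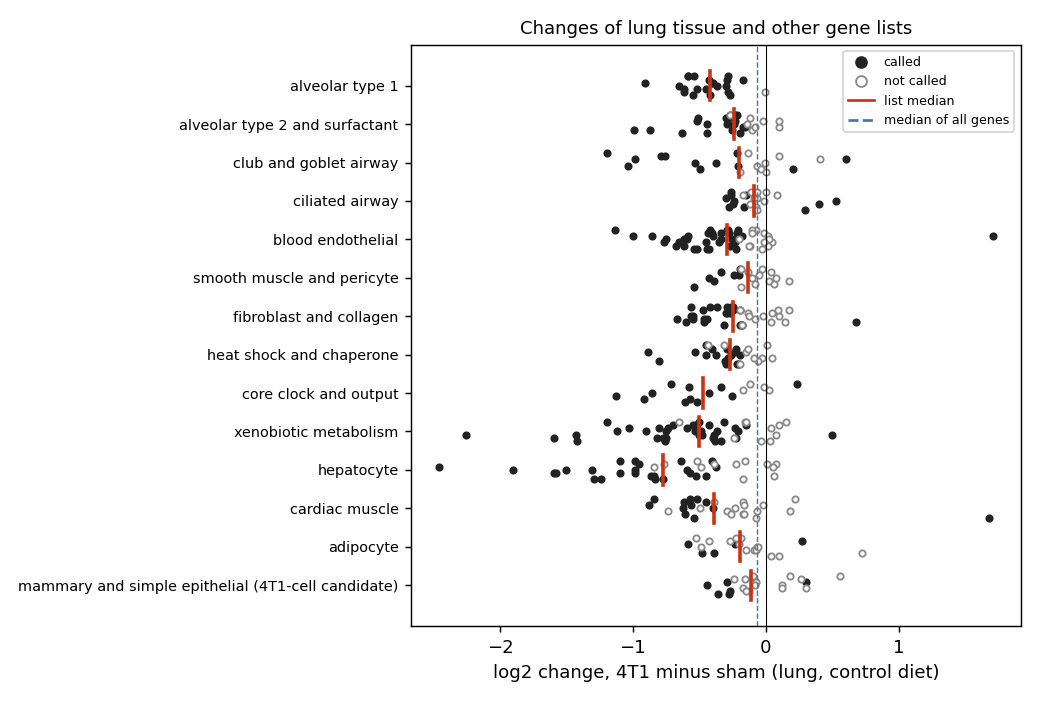
Log2 change (x axis, 4T1 minus sham, control diet) of each tested member of 14 lung tissue and other gene lists, with filled points for called genes, open points for genes not called, a red bar for the list median and a dashed line for the median of all genes. Type 1 alveolar genes cluster at a median of -0.42, and the hepatocyte list spreads from 0.08 to -2.46.

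Stromal genes moved by small amounts. Of 37 fibroblast and collagen genes 24 fell and 1 rose, with a median of -0.25; Ogn (osteoglycin, -0.67), Ltbp4 (a TGF-beta binding protein, -0.60) and Sparcl1 (-0.56, and -0.92 after background correction) led. Eln (elastin) rose by 0.68 ± 0.16, with -0.04 at its other probe. Of 19 smooth muscle and pericyte genes 7 fell and 0 rose, a share near the background, with Mylk (myosin light chain kinase) at -0.43, Notch3 at -0.39 and Myh11 at -0.34. Pln (phospholamban) was at least 1.30-fold lower.

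Of 30 genes on a list of metastatic niche matrix and proteases, 10 rose and 6 fell (3 without 4T1 array 3), with a median of 0.06. Beside Mmp9, the leukocyte membrane protease Mmp25 rose by 2.25 ± 0.07 (3.97 after background correction), Adam8, a leukocyte sheddase, by 1.72 ± 0.07 (2.63) and Timp1, a protease inhibitor, by 0.90 ± 0.16. Among 27 hypoxia and glycolysis genes, 15 rose and 3 fell (5 without 4T1 array 2), with a median of 0.22. Slc2a3, the high-affinity glucose transporter, read 10.04, 9.99 and 9.93 on sham and 13.04, 13.05 and 13.14 on 4T1 arrays, a change of 3.09 ± 0.05. Hk3, the hexokinase of myeloid cells, rose by 2.96 ± 0.07, Pfkfb4 by 1.42 ± 0.07 and Slc2a1 by 1.23 ± 0.06. The hypoxia target Vegfa was among the members that fell.

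Chaperone and clock genes were mostly lower. Of 28 heat shock and chaperone genes 18 fell and 0 rose, with a median of -0.27, among them Dnajb9 (an endoplasmic reticulum co-chaperone, -0.88), Hsp90aa1 (-0.80, with -0.20 at its other probe) and the mitochondrial chaperonin pair Hspd1 (-0.53) and Hspe1 (-0.45). Of 16 core clock and output genes 11 fell and 1, Arntl, rose, with a median of -0.47. Per1 read 11.89, 12.06 and 12.16 on sham and 11.15, 10.97 and 10.61 on 4T1 arrays and fell by 1.13 ± 0.13. Per2 (-0.92), the repressor gene Nr1d2 (-0.86) and the activator gene Rora (-0.71) fell in the same way. The labels give no time of day for tissue collection, and its part was not tested. Of 18 glucocorticoid response genes 11 fell and 1, Lcn2, rose, with a median of -0.44, including Errfi1 (a feedback inhibitor of the EGF receptor, -0.75) and Sult1a1 (-0.74); Per1 stands on both lists.

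The largest decreases were of genes best known from liver. Mup2, a major urinary protein gene, read 13.05, 12.86 and 12.84 on sham and 10.43, 11.07 and 9.87 on 4T1 arrays, a change of -2.46 ± 0.28 (-1.47 and -1.43 at its other kept probes). Cyp4a14, a fatty acid hydroxylase, read 9.92, 8.78 and 9.88 against 7.31, 7.40 and 7.11 and was at least 3.60-fold lower, being above background on no 4T1 array. Both genes were chosen for groups that do not overlap, so that gap is no finding. The spread between arrays was wider than for the neutrophil genes. Slc27a2 (a fatty acid transporter, -1.63 ± 0.21), Cyp2e1 (the ethanol-oxidizing cytochrome P450, -1.59 ± 0.23), Slco1b2 (an organic anion transporter of hepatocytes, -1.56 ± 0.33, other probe -0.46), Hamp2 (a hepcidin gene, -1.55 ± 0.36), Apoa2 (an apolipoprotein, -1.50 ± 0.37) and Cps1 (the first enzyme of the urea cycle, -1.30 ± 0.28) fell as well. Mup3 changed by -1.90, Mup6 by -1.57 (-3.04 after background correction), Cyp2c37 by -1.43, Cyp2c50 by -1.42, Cyp2b13 by -1.32 and Sult2a2 by -1.29. After background correction the last 4 changed by -2.16, -2.17, -2.51 and -2.37. Major urinary protein genes and members of the Cyp2c family are close copies whose probes may read each other, which was not tested.

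Of 37 hepatocyte genes 25 fell and 0 rose, with a median of -0.77. Averaged over the list, log2 intensity was 10.16, 10.14 and 10.44 on the sham arrays and 9.23, 9.97 and 9.18 on the 4T1 arrays, so that 4T1 array 2 stood apart from the other 2 and nearer to sham. Without it 31 members fell, with a median of -0.996, and without 4T1 array 3 18 fell, with a median of -0.59. Of the 37 members 26 had their probe above background on all 6 arrays. Among members with such a probe 16 fell, with a median of -0.85. The probe of Alb (albumin) was above background on 1 of 3 sham and 0 of 3 4T1 arrays; whether this probe reads albumin RNA was not settled, so no level is drawn from it. Ttr (transthyretin) read 12.59, 12.64 and 13.16 on sham and 11.29, 12.33 and 11.06 on 4T1 arrays, a change of -1.24 ± 0.39 that lost its call without sham array 3, 4T1 array 1 or 4T1 array 3 (limma's adjusted p up to 0.0774). Apoa1 read 12.12, 11.61 and 11.88 against 10.62, 11.94 and 10.53 and was not called (-0.84). Liver RNA in the lung samples as the source of these values was not tested.

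Xenobiotic metabolism genes, many of which the lung's own club and endothelial cells also express, fell in 37 of 48 cases and 1 rose, with a median of -0.50. The member that rose was the glucuronosyltransferase gene Ugt1a10 (0.50). Of the 48 members 37 had their probe above background on all 6 arrays. Among members with such a probe 27 fell, with a median of -0.42. The list's mean was 10.81, 10.85 and 10.91 on the sham arrays and 10.27, 10.41 and 10.25 on the 4T1 arrays, with 4T1 array 2 again the highest of its group. With the mean of 14 secreted hepatocyte genes as a covariate 36 members were lower and 1 higher, with a median of -0.40. That mean read 11.26, 11.16 and 11.53 on sham and 10.32, 11.21 and 10.29 on 4T1 arrays. It was lower on 4T1 arrays 1 and 3 than on any sham array, while 4T1 array 2 lay within the sham range. It thus moved in part with the groups, and with 3 arrays per group the fit cannot fully separate the covariate from the injection. No source of the values is drawn from it. The same fit left 16 hepatocyte genes lower and 5 higher, with a median of -0.18, but these genes include those of the covariate.

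**Figure D4:**
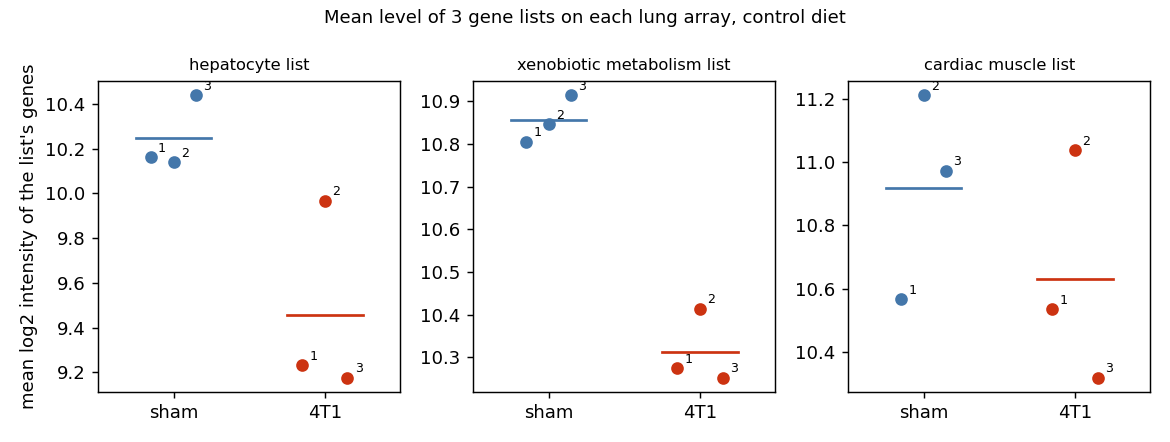
Mean log2 intensity (y axis) of the tested genes of the hepatocyte, xenobiotic metabolism and cardiac muscle lists on each control-diet lung array, with array numbers beside the points and lines for group means. The 4T1 array 2 lies above the other 4T1 arrays in each panel, and sham and 4T1 arrays overlap for the cardiac list.

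Markers of neighbouring tissue and of the injected cells were read on the same arrays. Of 27 cardiac muscle genes 11 fell and 1 rose, and the list means overlapped between the groups, with 10.57, 11.21 and 10.97 on sham and 10.54, 11.04 and 10.32 on 4T1 arrays. The count of decreases went to 17 without sham array 1 and to 6 without sham array 2 or without 4T1 array 3. Myl7, an atrial myosin light chain, fell by 0.88 ± 0.18 and Ryr2, the cardiac calcium release channel, by 0.84 ± 0.12, while Myh6 and Tnnc1 had overlapping groups. Myl2, a ventricular myosin light chain, ranged from 7.10 to 8.53 on sham and from 7.27 to 11.17 on 4T1 arrays, and its call at limma's adjusted p = 0.0482 was lost without sham array 1, sham array 2, 4T1 array 1 or 4T1 array 2.

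Of 20 mammary and simple epithelial genes, candidates for 4T1 cells, 1 rose and 5 fell. Epcam (an epithelial adhesion molecule), Csn2 (beta casein) and Wap (whey acidic protein) were above background on 0 of the 6 arrays. Each has 1 probe, and whether these probes read their RNA was not settled. No absence of 4T1 cells is drawn from them. The keratin genes of simple epithelium, which lung epithelium also expresses, read 12.55, 12.57 and 12.64 on sham and 12.41, 12.22 and 12.29 on 4T1 arrays for Krt8 (-0.28), 10.53, 10.43 and 10.51 against 10.42, 10.40 and 10.43 for Krt18, which was not called, and 10.53, 10.37 and 10.48 against 10.37, 10.35 and 10.42 for Krt19, also not called. Cldn4, a tight junction claudin, was the member that rose, by 0.31 ± 0.10 (0.66 after background correction), a call lost without sham array 3 or 4T1 array 1. The share of the epithelial list that rose was thus below that of all genes.

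The same injection was also made in mice on a high-fat diet, which allows a test of whether the difference depended on diet. Of the 12120 genes 36 (0.297%) had a called interaction, 4 with a higher and 32 with a lower injection difference on the high-fat diet, and 1642 had an unadjusted p under 0.05. In the 2 diets' own comparisons 2142 genes rose on both and 3092 fell on both, and 16 were called in opposite directions. S100a9 rose by 3.91 on the control and by 2.84 ± 0.06 on the high-fat diet, an interaction of -1.07 ± 0.09 (limma's adjusted p = 8.9e-05). Its sham means were 11.63 (control) and 12.57 (high-fat), and its 4T1 means 15.54 and 15.4, near the top of the scale. Csf3r rose by 3.95 and 3.15 in the same order. Its sham means were 9.36 and 9.99, and its 4T1 means 13.31 and 13.15.

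Spon2, a matrix protein that binds integrins, rose by 1.00 ± 0.08 on the control diet and fell by 0.30 on the high-fat diet, an interaction of -1.30 ± 0.12. Arntl, the clock activator BMAL1, rose by 0.24 ± 0.06 (control) and fell by 0.90 (high-fat), an interaction of -1.14 ± 0.08, with sham means of 8.22 and 9.36 and 4T1 means of 8.45 for each diet. Fcmr, the Fc receptor for immunoglobulin M, was not called on the control diet (0.13) and fell by 0.84 on the high-fat diet. On the high-fat diet 22.9% of all genes were called higher and 32.5% lower. The B cell list had 2 of 18 higher and 11 lower there, against 8 and 2 on the control diet (3 and not 8 higher without sham array 3 or 4T1 array 2), and 4 members, Fcmr, Cd79b, Cd22 and Fcer2a, had a called interaction, all toward lower values. In the other direction, Dclk3 (a kinase gene) fell by 0.57 on the control diet and was not called under high-fat feeding (0.16), Clk1 (a splicing kinase) fell by 0.51 and was not called (-0.02), and Becn1 (beclin 1, of autophagy) was not called (0.09) and rose by 0.53, with -0.26 at its other kept probe for the control diet. Acot3, a peroxisomal thioesterase, was above background on no 4T1 array of the control diet, where it was lower by at least 1.72-fold, and fell by 0.32 under the high-fat diet. The number of interactions rested on single arrays. Without sham array 3 of either diet 0 were higher and 5 lower, without 4T1 array 2 of the control diet 9 and 49, and without any other single array 0 to 9 and 6 to 34. Over 15 alternatives, which left out each array or changed the normalization or the block, Spon2, Arntl and S100a9 kept their call in all 15. Dclk3 kept it in 10, Fcer2a in 9, Fcmr and Cd79b in 7, Csf3r and Cd22 in 6, Becn1 in 3 and Acot3 and Clk1 in 2 (limma's adjusted p up to 0.137).

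**Figure D5:**
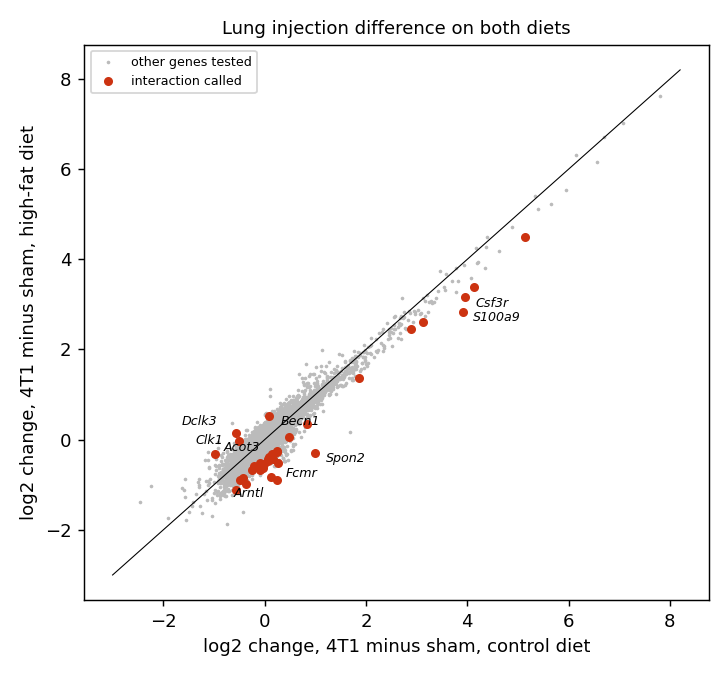
Log2 change after 4T1 injection in lung, control diet on the x axis and high-fat diet on the y axis, for 12120 genes, with the 36 called interactions in red, the genes named in the text labelled and a line of equal change. Most red points lie below the line, as 32 of 36 had the lower value on the high-fat diet.

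Against liver on the same diet, 4735 of 9657 genes (49%) had a different injection difference, 2284 higher and 2451 lower in lung, from arrays of both tissues normalized jointly (24 arrays). Mrgpra2b rose by 4.78 in lung and 1.47 in liver, a difference of 3.31 ± 0.11. The fitted values of Prok2 were 5.89 in lung and 2.20 in liver, but its probe was above background on 0 of 3 sham lung arrays, so its lung rise and the difference of 3.69 are not measured exactly. Ctse (the aspartic protease cathepsin E) rose by 2.38 in lung and fell by 0.85 in liver, although its other kept probes in lung changed by 0.17 to 0.34. Slc40a1, the iron exporter ferroportin, rose by 3.22 in lung and changed by 0.18 in liver, and Saa3 rose by 2.90 in lung and changed by -0.18 in liver. In lung the array values of Slc40a1 were 11.07, 11.12 and 11.19 on sham and 14.00, 13.94 and 14.02 on 4T1 arrays.

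Ltf rose by 2.73 in lung and 5.94 in liver, S100a9 by 4.22 and 6.54, and Chil3, a chitinase-like protein of macrophages and neutrophils, was not called in lung (-0.05; other kept probes -0.57 to -0.24) and rose by 2.53 in liver. The 4T1 lung values of Ltf and S100a9 lay near the top of the scale, which bounds the rise that could be read in lung. Mup2 changed by -2.67 in lung and -0.16 in liver, where its means of 16.03 on sham and 15.87 on 4T1 arrays lie at the top of the scale. Dnaic1, a dynein chain of motile cilia, fell by 0.26 in the lung fit and rose by 2.44 in liver, with 0.00 at its other kept probe in lung.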

How the data were processed

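Lung RNA was hybridised to Illumina mouse bead arrays. Per the submitters' processing notes, signals were exported with GenomeStudio 2009.2. The deposited intensity table holds mean bead signals without normalization and a detection p-value per probe, per the file headers. The deposited log2 values matched quantile-normalized log2 signals within lung, without background correction, to within 0.01 for all 543372 probe-array pairs. The sources used here name no other upstream step. The number of arrays limits the precision.

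Groups were compared with limma 3.58.1 (lmFit, eBayes) in R 4.3.3 over the 12 lung arrays, with Benjamini-Hochberg adjustment over all genes and a threshold of 0.05. Symbols came from the platform annotation, so 3527 kept probes with none or several stayed unnamed and untested. Of 2632 called genes with another kept probe, 1122 had one that changed much less or oppositely. "After background correction" means limma's neqc with an offset of 16. "At least" folds, for genes above background nowhere in the dim group, set the brighter group's mean against the dim group's mean, each dim value raised to that array's lowest signal above background where it lay under it. Named genes were the 15 highest and 15 lowest without group overlap, up to 4 called members of each of 41 lists, the interaction and lung-liver extremes and tissue markers. Genes named outside this rule (Lyz1, Lyz2, Chil3, Nkg7, Ctsc, Igfals, S100a8, Cxcr4, G0s2, Tpsb2, Gata2, Kit, Mcpt4, Cma1, Csf1r, Ctsd, C1qa, Cd3e, Tlr3, Il18r1, Nt5e, Stmn1, Pcna, Cfb, Igfbp2, Hp, Muc20, Ugt1a10, Cd22, Fcer2a) were chosen after their values were seen. Members, lists and rules were chosen with earlier results of these data known. The fit was tested on simulated data. Labels pair no arrays: correlations of same-numbered control-diet lung arrays were 0.11, 0.10 and -0.10. Figures used matplotlib 3.10.9 and tables pandas 2.3.3.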

Additional observations from a re-analysis of the deposited data

Results flagged for a closer look

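These results differed between diets or tissues by a test of the difference itself, limma's interaction term (adjusted p under 0.05). For the lung injection difference, high-fat minus control diet, the log2 values were 0.73 for Dclk3, 0.67 for Acot3, 0.49 for Clk1, 0.44 for Becn1, -1.30 for Spon2, -1.14 for Arntl, -1.07 for S100a9, -0.97 for Fcmr and -0.79 for Csf3r. For the control-diet injection difference, lung minus liver, they were 3.69 for Prok2, 3.31 for Mrgpra2b, 3.24 for Ctse, 3.07 for Saa3, 3.03 for Slc40a1, -3.21 for Ltf, -2.69 for Dnaic1, -2.58 for Chil3, -2.51 for Mup2 and -2.32 for S100a9. The values of Acot3 (above background on 0 of 3 control-diet 4T1 arrays; 0.57 to 1.41 over the alternatives) and Prok2 (on 0 of 3 control-diet sham lung arrays; 3.64 to 4.43) rest on readings under background and are not exact. Values of S100a9 and Ltf on 4T1 lung arrays and of Mup2 on liver arrays lie near the top of the scale, which limits what these differences can show.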

How the results depend on the processing

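The counts of 2535 higher and 4046 lower genes stayed within 1.5 times under background correction, median scaling, no or a stricter detection filter, the 6 arrays alone and array weights. With every kept probe tested they were 4451 and 7678 probes, and with a log2 change of at least 1 they were 365 and 35 genes. Leaving out 1 array gave 2246 to 2428 higher and 3512 to 3793 lower genes. The interaction counts of 4 and 32 were the least stable: 0 to 9 and 5 to 49 on leaving out 1 array, and 9 lower after background correction. The lung-liver counts stayed within 1.5 times, with 2091 to 2424 higher and 2262 to 2568 lower on leaving out 1 array. With replicate number as a block, which the check of pairing did not bear out, the counts were 2480 and 3974, and 2 interactions were higher. Scgb1a1 changed sign under median scaling (0.14). The causes were not tested, apart from the larger number of features when every probe is tested and the smaller number past a fold minimum. Of 177 named called genes 162 kept their call under all alternatives run, and 15 lost it under at least 1: Cd74, H2-Aa, Blk, Cd79b, Lef1, Hbb-b2, Car2, Ddit4, Myl2, Tnnc1, Cidec, Plin4, Cldn4, Ttr and Myh6. Of the list medians, 3 near 0 changed sign under median scaling and 0 after background correction. Genes near background are limited by the missing background correction, and genes near the top by the scale.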

Other observations

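Several other gene groups showed small or mixed differences in lung on the control diet. Of 14 erythroid genes 1 rose and 2 fell, with the haemoglobin gene Hbb-b2 at 0.25, a call lost under 7 alternatives, and the transferrin receptor gene Tfrc at -0.35. Among 23 p53 target genes 8 rose and 6 fell (2 without 4T1 array 1, and 3 without sham array 2 or sham array 3). Gadd45a, a DNA damage response gene, rose by 1.73 ± 0.07 and the repair gene Xpc by 0.82 ± 0.07. The antioxidant (NRF2) list had 6 of 30 higher (20%) and 12 lower (40%), against 20.9 and 33.4% of all genes. Under median scaling 10 were higher. Of its members, Taldo1 (transaldolase, of the pentose phosphate pathway) changed by 1.40 ± 0.06. Hmox1 (haem oxygenase 1) changed by 0.88 ± 0.08 and Cat (catalase) by -0.67 ± 0.05.

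Oxidative phosphorylation genes rose in 4 and fell in 13 of 46 cases, with a median of -0.08, and Cox6c, a subunit of cytochrome c oxidase, fell by 0.45 ± 0.07. Of 44 ribosomal protein genes 10 rose and 9 fell, the second count being 5 on leaving out any of the 3 sham arrays or 4T1 array 2 and 4 under median scaling. Of 20 adipocyte genes 1 rose and 4 fell, with 10 lower without sham array 1 or without 4T1 array 2. Of 16 skeletal muscle genes limma called 0 in either direction, with Pvalb, a calcium-binding parvalbumin, at 0.34 and Myl1, a myosin light chain, at -0.30, both with overlapping groups.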
